A study of Mus musculus with 61 samples.

Results

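The enhancers described here are those that lie closest to a promoter they were assigned to, in a deposited table of regulatory regions known from mouse embryonic stem (ES) cells. For each of 14265 distinct enhancers, the smallest distance between its position and the start site of any assigned gene was taken. The nearest 20.0%, at most 9391 bp from the start site, were kept. This gave 2854 enhancers, assigned most closely to 2254 promoters of 2214 genes, and left 11411 enhancers for comparison. Distance alone was the criterion, so their levels, ratios and Sox2 positions were not used in the choice. At the limit, enhancers of Fam118a and Kdm2b (both 9391 bp) were the last inside, with log2 ratios of -0.051 and 0.0028, and those of Prdm1 (9393 bp) and Cldn4 (9396 bp) the first outside, with 0.059 and 0.12.

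The study induced reprogramming of fibroblasts to pluripotency while CAF-1 was reduced by RNA interference. All cells used here were mouse embryonic fibroblasts of E13.5 embryos on the strain Black6-129X1/SvJ, with the genotype Col1a1::tetOP-OKSM ; R26-M2rtTA. They were given doxycycline (2 ug/ml) and ascorbate in serum/LIF medium and collected at day 3, the drug being what switches on the OKSM cassette (Oct4, Klf4, Sox2 and Myc) in control and knockdown cells alike, through the activator M2rtTA placed at the Rosa26 locus. By the labels the groups differ in the hairpin, which was directed at CAF-1 or, in the control, at Renilla luciferase, a gene that mouse cells lack. Sono-seq had 3 libraries per group, deposited as 1 value per region and group. Sox2 ChIP-seq had 1 immunoprecipitate and 1 input for each of the hairpins Renilla, Chaf1a.166 and Chaf1a.2122. For some other libraries of the series the title and the description give different numbers for the first Chaf1a hairpin, so its name is used as in the titles of the Sox2 libraries. There were thus no replicate values, and no difference between groups given here has a test. The labels do not say which hairpin or hairpins stand behind the CAF-1 libraries of Sono-seq. No expression values were used, so neither the knockdown nor the fibroblast identity was checked against genes.

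CAF-1 is a histone chaperone that deposits histones H3 and H4 on newly copied DNA, and Chaf1a and Chaf1b encode subunits of it. Enhancers are stretches of regulatory DNA bound by transcription factors, which raise the transcription of genes that can be near or far away. Sox2 is a pioneer factor that can bind its short motif in closed chromatin. Sono-seq reads out which DNA shears readily when fixed chromatin is sonicated, a property of open regions.

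Several of the closest enhancers were assigned to small RNA genes. A single mature microRNA is shown for each of 5 such genes under 3 kb, because these genes recur in the results. The arm (3p or 5p in the name) was a fixed choice for each gene, and any opposite arm is not shown. Sequences are from RefSeq (GRCm38.p6), 5′ to 3′, with the seed (bases 2 to 8) in capitals.
Mir210, miR-210-3p: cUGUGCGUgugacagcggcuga
Mir190, miR-190a-5p: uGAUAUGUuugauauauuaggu
Mir295, miR-295-3p: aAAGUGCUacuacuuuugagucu
Mir130a, miR-130a-3p: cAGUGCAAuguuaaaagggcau
Mir205, miR-205-5p: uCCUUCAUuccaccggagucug
The 5 seeds differ from each other. The seed of miR-295-3p, a microRNA of ES cells, is shared by 4 other mature mouse microRNAs of the table, namely miR-291a-3p, miR-294-3p, miR-302b-3p and miR-302d-3p. The seeds of miR-210-3p, a microRNA induced by low oxygen, and of miR-205-5p, one of epithelial cells, were shared by 0 others.

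At 4 genes Sox2 was listed in all 3 libraries both at the enhancer and at the promoter. Their promoters are shown here (RefSeq, GRCm38.p6, from 250 bases before the start site to 50 after it), with matches to the Sox hexamers ACAAAG and ACAATG, on either strand (CTTTGT and CATTGT), in capitals. These genes were chosen after their values were seen.
Tek, plus strand, chr4:94739039-94739338: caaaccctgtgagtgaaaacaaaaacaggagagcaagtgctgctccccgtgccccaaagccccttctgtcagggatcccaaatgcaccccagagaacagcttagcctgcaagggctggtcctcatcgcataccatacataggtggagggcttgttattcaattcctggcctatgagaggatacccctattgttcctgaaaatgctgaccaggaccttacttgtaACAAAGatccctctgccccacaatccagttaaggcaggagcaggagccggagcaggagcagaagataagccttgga
Tesk2, plus strand, chr4:116720705-116721004: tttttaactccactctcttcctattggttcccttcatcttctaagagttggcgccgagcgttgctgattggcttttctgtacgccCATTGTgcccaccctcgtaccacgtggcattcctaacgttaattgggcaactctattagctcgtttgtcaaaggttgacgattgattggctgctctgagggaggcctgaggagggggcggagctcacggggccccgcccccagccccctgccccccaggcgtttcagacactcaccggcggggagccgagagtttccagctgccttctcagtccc
Slc1a4, minus strand, chr11:20332664-20332963: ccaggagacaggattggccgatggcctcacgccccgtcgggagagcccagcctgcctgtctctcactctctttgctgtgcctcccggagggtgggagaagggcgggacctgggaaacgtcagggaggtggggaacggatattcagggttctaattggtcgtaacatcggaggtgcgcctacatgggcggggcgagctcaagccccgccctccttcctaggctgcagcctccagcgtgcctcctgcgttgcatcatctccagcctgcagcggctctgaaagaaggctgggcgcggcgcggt
Ptpn3, minus strand, chr4:57301788-57302087: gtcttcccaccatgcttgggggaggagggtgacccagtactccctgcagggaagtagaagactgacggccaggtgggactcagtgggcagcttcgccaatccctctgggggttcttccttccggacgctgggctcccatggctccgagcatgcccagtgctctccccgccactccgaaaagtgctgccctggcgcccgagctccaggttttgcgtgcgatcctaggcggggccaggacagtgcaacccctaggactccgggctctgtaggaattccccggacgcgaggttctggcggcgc
Tek has ACAAAG 26 bases before the start site, and Tesk2 has CATTGT 165 bases before it. No match stands in the windows of Slc1a4 and Ptpn3, which says only that these letters are absent from 300 bases. Enhancer sequences were not used here, since all positions below are mm9 and the RefSeq tables are of another build.

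The nearest enhancers sat in a narrow band of distances. Their median distance was 5846 bp, against 37166 bp for the other enhancers. Only 23 of the 2854 lay under 3000 bp, while 527 lay from 3 to 4 kb, so few members lie short of 3 kb. Of the 23, 9 were closest to a microRNA or small nucleolar RNA gene, against 13 of the 2831 farther members and 70 of the 11411 other enhancers. Among members with a known gene strand (2225), 811 (36.4%, 95% exact binomial interval 34.4 to 38.5) lay upstream of the start site and 1414 (63.6%) downstream, on the side of the gene body. The downstream share of the other enhancers was 65.3%.

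**Figure D1:**
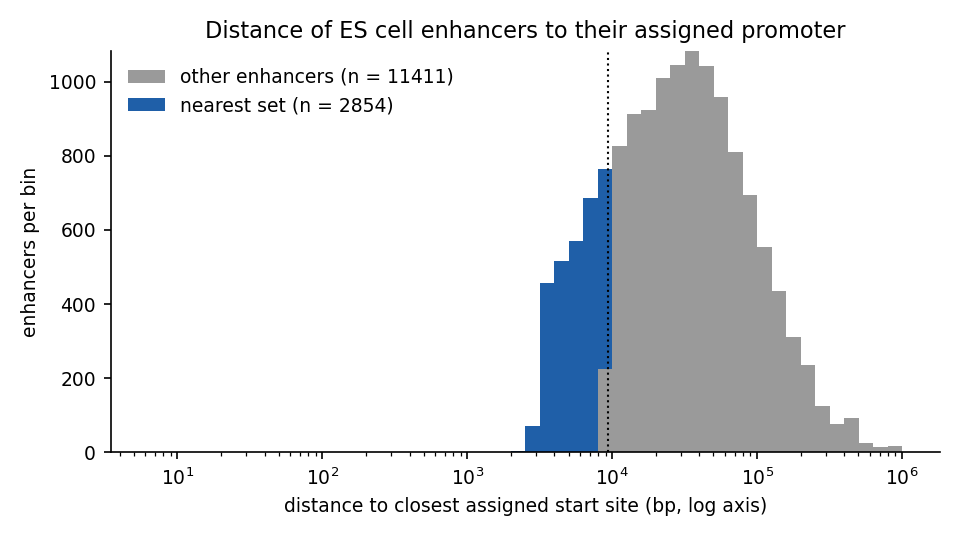
Number of enhancers per bin of distance to the closest assigned start site, on a log axis in bp. Blue bars are the 2854 nearest enhancers, stacked on grey bars for the 11411 others, and the dotted line marks 9391 bp. Almost all nearest enhancers fall between 3000 and 9391 bp.

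Of the nearest enhancers, 36.8% were assigned to more than 1 gene, against 27.9% of the others. Of the 2254 promoters, 1741 had 1 nearest enhancer, 434 had 2, 71 had 3 and 8 had 4.

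Sono-seq levels at the nearest enhancers were close to those of the other enhancers. The authors' values have no stated unit and are called levels here. The nearest enhancers had a median level of 0.139 in CAF-1 and 0.137 in Renilla (quartiles 0.119 to 0.160 and 0.120 to 0.155). The other enhancers had 0.140 and 0.137. The promoters next to the nearest enhancers were slightly higher, at 0.144 and 0.146, and 40.4% of the nearest enhancers exceeded their own promoter, against 45.2% of the others. On the X chromosome the 31 members had medians of only 0.0810 and 0.0819, the lowest of the 20 chromosomes.

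By level, the highest member stood far apart from the rest. It lay on the X chromosome at 166420700, 3851 bp upstream of the gene G530011O06Rik, with 0.624 in CAF-1 and 0.613 in Renilla, and its promoter was as high (0.717 and 0.710). Next came an enhancer of Plec, which encodes the cytoskeletal linker plectin, with 0.215 and 0.267. An enhancer of Naprt1, an enzyme of NAD synthesis, had 0.239 and 0.231. Zyx, the gene of the focal adhesion protein zyxin, had one at 0.264 and 0.204, and Gamt, an enzyme of creatine synthesis, one at 0.232 and 0.233. CAF-1 and Renilla values were nearly alike at G530011O06Rik, Naprt1 and Gamt, while Plec was lower and Zyx higher in the knockdown.

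Between the groups the nearest enhancers differed very little, with a median close to that of enhancers farther away. For CAF-1 over Renilla their median log2 ratio was 0.024 (95% interval 0.015 to 0.033, with an SD of 0.23 over 2854 enhancers), which is 1.02-fold. The other enhancers had 0.029 (0.024 to 0.034), a difference of -0.0049. On 10 of 20 chromosomes the nearest enhancers had the lower median and on 10 the higher. Such intervals treat enhancers as independent, which neighbours are not, and do not cover the spread between libraries.

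Counts of enhancers were similar as well. Of the nearest enhancers, 54.5% (52.6 to 56.3) had the higher value in CAF-1, against 55.3% of all enhancers. At least 25% higher in CAF-1 were 274 (9.60%), beside a background of 10.3% over all enhancers. Lower by the same factor, that is by at least 20%, were 186 (6.52%), beside 6.58%. No nearest enhancer differed by 2-fold. The largest ratio by size was -0.89, at an enhancer of Ppfibp2, which encodes a liprin. Over 5 distance classes of equal size the medians were 0.024, 0.027, 0.028, 0.031 and 0.032 from near to far, so the values stood in order of distance, but each interval overlapped all the others.

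Scaling bears on these small values. With both groups brought to the same median over all enhancers and promoters, every log2 ratio moved by -0.019, the nearest median was 0.0047 and 50.9% were higher in CAF-1. The counts past the limits then became 239 higher and 225 lower, so the share of higher ones among them went from 59.6% to 51.5%.

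High ratios among members of higher level (mean level above the median of 0.139 over all enhancers) belonged to genes of varied function. An enhancer 3275 bp upstream of Rnf8, which encodes a ubiquitin ligase of the DNA damage response, had a CAF-1 value of 0.188 and a Renilla value of 0.114 (log2 ratio 0.72). The enhancers of Iffo1 (0.194 and 0.125, 0.63) and Osbpl9, an oxysterol-binding protein (0.179 and 0.117, 0.61), followed. An enhancer of Ankrd10 had 0.192 and 0.126 (0.61), and one of Adprhl2, an ADP-ribose hydrolase, 0.202 and 0.133 (0.60). Their promoters were closer to parity, with log2 ratios of 0.022 (Rnf8), 0.16 (Iffo1), 0.047 (Osbpl9), -0.26 (Ankrd10) and 0.27 (Adprhl2).

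Low ratios were of similar size. An enhancer 4472 bp downstream of the start of Orai3, a calcium channel subunit, had 0.135 in CAF-1 and 0.207 in Renilla (-0.62), and here the promoter was also low (0.121 and 0.172, -0.51). Another enhancer of Ankrd10 had 0.125 and 0.190 (-0.60). Fth1, the ferritin heavy chain, had 0.131 and 0.189 (-0.53), Kctd11 0.115 and 0.162 (-0.50) and Slc12a7, a potassium-chloride cotransporter, 0.122 and 0.172 (-0.50). Ankrd10 therefore had an enhancer among the 5 highest and another among the 5 lowest. They lie at 11639850 and 11629800 on chromosome 8, and another member between them, at 11632400, had -0.021.

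Upstream and downstream members differed in level and ratio. Those upstream had medians of 0.134 in CAF-1 and 0.133 in Renilla and a median log2 ratio of 0.0011 (-0.015 to 0.017, n = 811). Those downstream had 0.143 and 0.140 and a ratio of 0.034 (0.018 to 0.052, n = 1414). The upstream median was the lower one on 13 of 20 chromosomes. Among other enhancers the levels differed by side in the same way, with 0.136 and 0.133 upstream and 0.143 and 0.140 downstream. Their ratios were 0.028 upstream and 0.030 downstream. This split by side was examined after the data were seen and was not tested.

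Members assigned to several genes had a median ratio of 0.038 (0.024 to 0.059, n = 1051), and those of 1 gene 0.014 (0.0013 to 0.028, n = 1803). The same order held among other enhancers, at 0.034 and 0.027.

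Levels at enhancer and promoter were correlated, in general more so at shorter distance. Over the 2854 nearest enhancers the Spearman correlation of mean levels was 0.36. In the 4 farther distance classes it was 0.29, 0.26, 0.20 and 0.22. Within the nearest set it was 0.73 for the 23 under 3 kb, 0.44 from 3 to 4 kb and 0.31 from 8 to 9.4 kb, with one step against this order (0.36 from 4 to 5 kb and 0.39 from 5 to 6 kb). Correlations over regions are descriptions, since the points share libraries and local base composition, whose part was not tested.

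The ratio between groups, by contrast, showed almost no correlation between enhancer and promoter. Over the nearest set the Pearson correlation of the 2 log2 ratios was 0.046, and in the farther classes it lay between -0.0058 and 0.026. Of the nearest enhancers 50.9% (49.1 to 52.8) had the same direction as their promoter, where the separate shares of higher enhancers and promoters would give 49.8%, and 49.6% of the others did. In numbers, from 3 kb outwards the correlation was 0.039 over 2831 enhancers, with band values from -0.028 (8 to 9.4 kb) to 0.11 (5 to 6 kb).

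**Figure D2:**
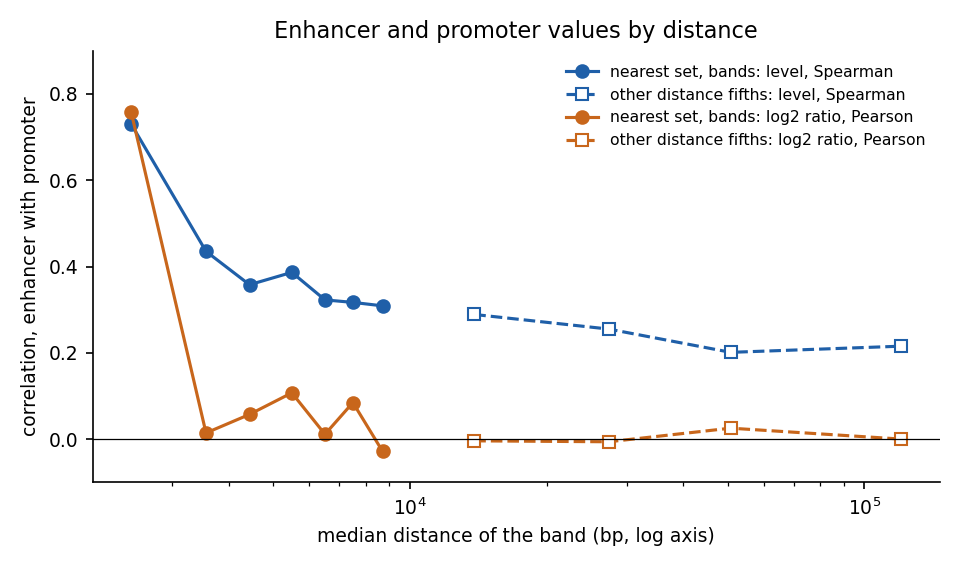
Correlation of enhancer with promoter against the median distance of each band in bp (log axis), for levels (Spearman, blue) and log2 ratios (Pearson, orange). Filled circles are bands of the nearest set and open squares the 4 farther distance classes. Level agreement goes from 0.73 to 0.31 across the nearest set, while ratio agreement is 0.76 under 3 kb and at most 0.11 beyond.

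The 23 enhancers under 3 kb were the exception. Their ratios correlated with those of their promoters at 0.76, and 19 of 23 (82.6%, 61.2 to 95.0) had the same direction, including all 6 under 1 kb. Regions are deposited as single positions without an extent, and whether regions this close share reads was not tested. At Mir210, whose enhancer on chromosome 7 at 148407400 lies 8 bp from the start site, enhancer and promoter held identical values of 0.199 and 0.179 (0.15 for both).

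Other very close pairs were nearly identical as well. At Tgif1, a homeobox repressor of TGF-beta signalling, the enhancer 83 bp away had 0.121 and 0.143 and the promoter 0.120 and 0.142. At Esp8, a secreted peptide gene, 230 bp separated an enhancer at 0.0803 and 0.0842 from a promoter at 0.0803 and 0.0813. Trpc2, an ion channel gene, had -0.23 at the enhancer and -0.32 at the promoter, 371 bp apart. Mir190 had 0.34 at both (467 bp), and a farther enhancer of Mir190, at 3567 bp, also had 0.32.

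Small RNA genes made up much of the remainder under 3 kb. Mir295 was lower in CAF-1 at the enhancer (0.118 and 0.138, -0.23) and at the promoter (-0.15). Mir130a was higher at both (0.22 and 0.38). Mir205, 2924 bp from its enhancer, was near parity with opposite signs (0.039 and -0.11). Snora75, Snord47 and Snord58b were higher at enhancer and promoter, and Snord83b lower at both. Tet1, a 5-methylcytosine oxidase, had -0.22 at an enhancer 2438 bp away and -0.039 at its promoter. Coil, the gene of the Cajal body protein coilin, had the highest ratio under 3 kb (0.58, with 0.138 in CAF-1 and 0.0927 in Renilla) and 0.26 at its promoter.

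**Figure D3:**
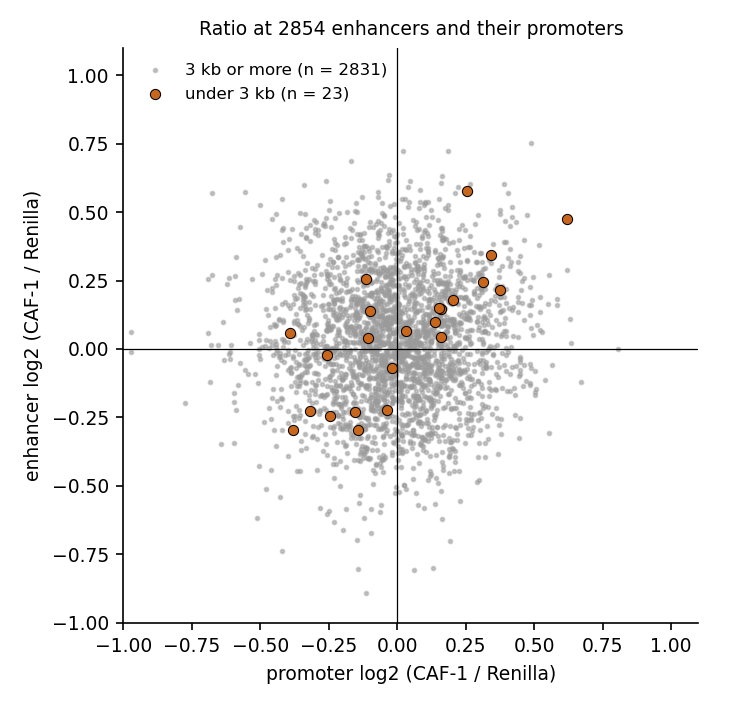
Log2 ratio of CAF-1 over Renilla at each of the 2854 nearest enhancers (vertical) against that of its closest assigned promoter (horizontal). Orange points are the 23 enhancers under 3 kb, which spread along the diagonal, and grey points the 2831 others, which form a round cloud (Pearson r 0.039).

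Ratios of neighbouring enhancers also correlated more at shorter distance. Over all adjacent enhancer pairs the ratios correlated at 0.78 under 1 kb (25 pairs), 0.61 from 1 to 2 kb (99), 0.31 from 2 to 3 kb (573), 0.13 from 3 to 5 kb (2142) and 0.0087 from 5 to 10 kb (2836). For pairs within the nearest set the values in the same order were 0.57 (7 pairs), 0.54 (30), 0.36 (95), 0.15 (184) and 0.013 (133). Of the 23 enhancers under 3 kb from their promoter, 6 lay under 1 kb and 17 at 1160 to 2952 bp, and their 0.76 was not compared by test with these values.

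Enhancers of 1 promoter went the same way in some cases and opposite ways in others. Among the 434 promoters with 2 nearest enhancers, 242 pairs (55.8%) had the same direction. Of all nearest enhancers 54.5% were higher in CAF-1, and the share of like pairs that this alone would give was not computed. Of all 513 promoters with several, 266 had members of a single direction and 247 were mixed. These include 71 promoters with 3 members and 8 with 4, which are mixed more easily than pairs.

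Genes with many nearest enhancers held both cases. Gse1 had 6 members around several start sites, 3 higher and 3 lower (-0.20 to 0.23). Tgif1 had 5, of which 2 were higher (-0.29 to 0.27). All 4 of Fnbp1, a membrane-curving adaptor of actin assembly, were lower in CAF-1 (-0.31 to -0.0051). Gcnt2, an enzyme of blood group I synthesis, had 1 of 4 higher (-0.38 to 0.12). Of these 4 genes, Fnbp1 had members of a single direction and the other 3 had both.

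The widest gaps between enhancer and promoter, among pairs with both levels above the median, all had a higher enhancer and a lower promoter in CAF-1. Over all 5513 promoters, 6.68% were at least 25% higher and 8.98% at least 20% lower. Nipsnap1, a mitochondrial protein gene, had enhancers of 0.172 and 0.116 (0.57) and of 0.169 and 0.140 (0.27) beside a promoter of 0.117 and 0.187 (-0.68). The others were Ankrd10 (0.61 against -0.26), Trib1, a pseudokinase gene (0.26 against -0.61), and Acadm, an enzyme of fatty acid oxidation (0.27 against -0.59). At Trib1 the enhancer had 0.185 and 0.155 and the promoter 0.136 and 0.207.

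Sox2 was listed at few of the nearest enhancers, and at fewer than of the others. A position counted when it lay within 500 bp. In the Renilla list 78 of 2854 had one (2.73%, 2.17 to 3.40), in Chaf1a.166 84 (2.94%) and in Chaf1a.2122 82 (2.87%). The other enhancers had 3.32%, 3.43% and 3.85%. In at least 1 list the share was 3.85% (110 enhancers, 3.18 to 4.63), against 5.01% (4.62 to 5.43) of the others, so the intervals just met. In all 3 lists it was 2.00% (57 enhancers, 1.52 to 2.58), against 2.27% (2.00 to 2.56) of the others. There the second interval lay within the first.

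Control and knockdown lists had similar shares at the nearest enhancers, each from single libraries, but overlapped only in part. Of the 110 nearest enhancers with a position in at least 1 list, 57 had one in all 3. The share of nearest enhancers with a position was lower than that of the others in 21 of 21 combinations of a list with another setting. The settings were another window, threshold, distance limit or list length, or 1 enhancer per promoter. These combinations re-cut the same 3 lists, so they are not independent. For Chaf1a.166, the shortest list, equal list length changed nothing. At the promoters the order was the opposite. A Sox2 position in at least 1 list lay at the closest promoter of 13.3% (12.1 to 14.6) of the nearest enhancers and of 11.6% (11.0 to 12.2) of the others. The difference was not tested, because enhancers of 1 promoter share its value.

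**Figure D4:**
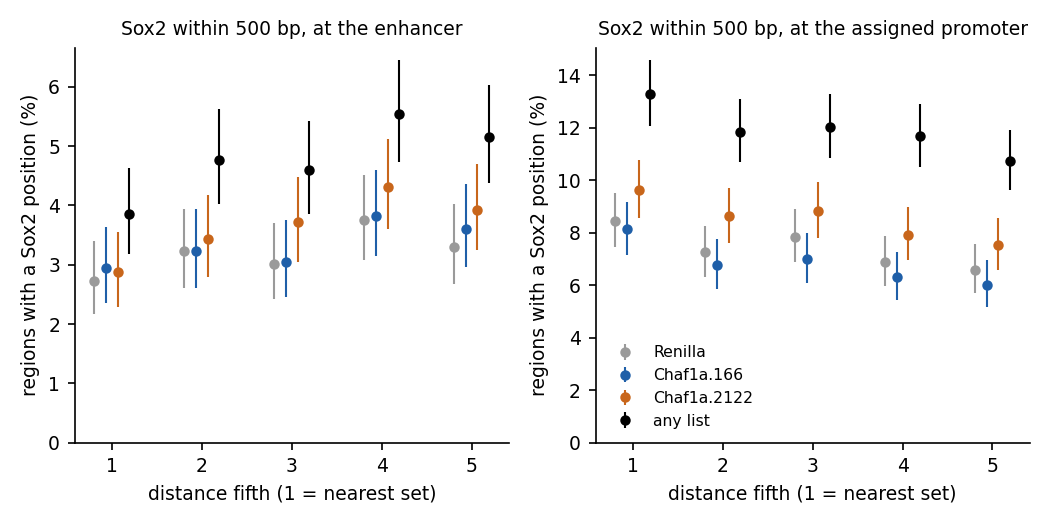
Share of enhancers (left) and of their closest promoters (right) with a Sox2 position within 500 bp, in percent, by distance class from near (1) to far (5). Points are the Renilla, Chaf1a.166 and Chaf1a.2122 lists and any of them, and bars are 95% exact binomial intervals of counting error. At enhancers the nearest class has the lowest share in any list (3.85%), and at promoters the highest (13.3%).

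Of the 110 nearest enhancers with a position, 57 (51.8%, 42.1 to 61.4) had one in all 3 lists, beside 45.3% (41.1 to 49.5) of the other enhancers with Sox2. Another 6 were in both knockdown lists without Renilla (5.45%, beside 9.27%) and 7 in Renilla alone (6.36%, beside 9.44%). A further 18 were in Chaf1a.166 alone (16.4%, against 9.44% of other enhancers with Sox2) and 8 in Chaf1a.2122 alone (7.27%, against 15.0%). The 2 Chaf1a hairpins thus had opposite orders here. In each list the median enrichment over input at nearest enhancers, the authors' own value per position, was 8.97 (Renilla), 7.99 (Chaf1a.166) and 7.51 (Chaf1a.2122). Over each whole list it was 8.23, 8.37 and 7.46.

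Counted positions, all within 500 bp by definition, had median offsets of 262, 235 and 232 bp from the nearest enhancers in the 3 lists. At other enhancers the offsets were 203, 197 and 205 bp. Whether positions gather at the nearest enhancers more than evenly spread ones would was not tested. Upstream members had Sox2 in at least 1 list in 2.71% (1.71 to 4.08) and downstream members in 4.38% (3.38 to 5.59).

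The strongest shared position was at an enhancer on chromosome 9 at 72506000, 4153 bp upstream of Nedd4, which encodes a ubiquitin ligase. Its score in the Renilla list was 145, and positions lay 261, 226 and 259 bp from the enhancer in Renilla, Chaf1a.166 and Chaf1a.2122. Ptpn3, a tyrosine phosphatase gene, came next by that score (103, at 108, 43 and 52 bp), then Stard5, a lipid transfer protein (94.2), Nupr1, a stress-induced nuclear protein (88.3), and Utp14b, a ribosome assembly factor (77.9). Sono-seq levels at these 5 ranged from 0.0973 to 0.179 in CAF-1 and from 0.109 to 0.177 in Renilla. Their log2 ratios were -0.24, -0.014, 0.089, 0.016 and -0.17 in that order, and so of both signs.

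Positions found in the knockdown lists but not in Renilla, or in Renilla alone, had low scores, though not always low enrichment. Among enhancers with Sox2 in both knockdown lists and not in Renilla, the best by score were those of Cd47, a surface protein that inhibits phagocytosis, Pdss1, an enzyme of coenzyme Q synthesis, Tmem55a, Nhsl1 and Dact2. Their Chaf1a.166 scores lay between 15.8 (Dact2) and 21.0 (Cd47), where the median of that list was 23.7. By enrichment in that list Nhsl1 (10.3) was above the list median of 8.37. At Tmem55a a Renilla position lay 506 bp away, just outside the window and on the other side of the enhancer.

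With Renilla alone, the best were Slc35e3, Tcfap4, Actn1 and Mnt, with scores from 14.8 (Mnt) to 18.7 (Slc35e3) beside a list median of 21.7. The enrichment at Slc35e3 (9.54) was above the list median of 8.23. There the Chaf1a.166 position was 503 bp away, so this case too rests on the window. Log2 ratios were -0.27 at Slc35e3, 0.12 at Tcfap4, 0.11 at Actn1, which encodes an alpha-actinin, and 0.060 at Mnt, a partner of Max. At the enhancers of both knockdown lists they were 0.088 (Cd47), -0.12 (Pdss1), 0.39 (Tmem55a), -0.23 (Nhsl1) and -0.0065 (Dact2). Both classes held ratios of either sign.

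Enhancers with a Sox2 position had a median log2 ratio of -0.00093 (-0.058 to 0.051, n = 110) and those without one 0.024 (0.016 to 0.034, n = 2744). The first interval contains the second median, but the second does not contain the first. The same order held among other enhancers, at 0.0069 with Sox2 (n = 572) and 0.030 without (n = 10839), and was not tested. For the 57 nearest enhancers with a position in all 3 lists the median was 0.038, while the 259 such enhancers farther away had -0.0026. The interval of the 57 (-0.045 to 0.11) contains the median of the farther ones.

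Sox2 at both ends was seen at 20 of the 110 nearest enhancers (18.2%, 11.5 to 26.7), and 13.1% of members without Sox2 at the enhancer had it at the promoter. In all 3 lists at both ends it was listed at Slc1a4, a neutral amino acid transporter, Ptpn3, Tek, the angiopoietin receptor, and Tesk2, a kinase of cofilin. Relative to the mm9 start site the promoter positions at Tek were 83, 91 and 84 bases upstream in Renilla, Chaf1a.166 and Chaf1a.2122, and those at Tesk2 210, 188 and 166 upstream. The single hexamer in the Tesk2 window printed above stands 165 bases upstream of the RefSeq start site, and that of Tek 26 upstream. At Ptpn3 the positions were 199, 173 and 220 bases downstream, beyond the printed window if the mm9 and RefSeq start sites coincide. At Slc1a4 they were at 60, -424 and 83 in the same order of lists (negative is upstream). On the same condition they too lie outside the printed window, and the Chaf1a.166 position lies apart from the others. Whether the start sites of the builds coincide was not checked, for Tek and Tesk2 as well.

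Tesk2 and Slc1a4 were higher in CAF-1 at both ends. The Tesk2 enhancer had 0.111 and 0.0826 (0.43) and its promoter 0.160 and 0.134 (0.25). For Slc1a4 the enhancer had 0.177 and 0.140 (0.33) and the promoter 0.165 and 0.153 (0.11). Tek was near parity at both (0.026 and -0.049), and Ptpn3 had a promoter of 0.106 and 0.144 (-0.44) beside an enhancer of 0.161 and 0.162 (-0.014).

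The Sox hexamers named above, on either strand, were found in 465 of 2241 RefSeq promoters of genes closest to a member (20.7%), against 28.6% of all 32851 promoters. For the other genes of the Sono-seq regions, those without a nearest enhancer, it was 19.7% of 2065 promoters. For genes with Sox2 listed at the promoter closest to a member in any list, 96 of 292 RefSeq promoters had a hexamer (32.9%). All RefSeq promoters of these 244 genes were counted, whether or not a position lay at each. The GC box (GGGCGG, on either strand) was present in 68.0% of the members' promoters, 67.5% of those of other table genes and 35.7% of all promoters. Median GC content was 62.3% for the members' promoters and 52.7% over all. Both shares were similar in promoters of table genes with and without a nearest enhancer, and both differed from those over all promoters.

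Genes of the pluripotency network had 26 nearest enhancers at 20 genes, of which 11 were higher (42.3%) and 15 lower in CAF-1, beside 55.3% higher over all enhancers. Their median log2 ratio was -0.037, against 0.028 over all enhancers, and -0.0037 for the 145 farther enhancers of the listed genes. At least 25% higher were 3 (11.5%, beside 10.3% of all enhancers) and at least 20% lower 1 (3.85%, beside 6.58%). None of the 26 had a Sox2 position within 500 bp, and 4.78% of all enhancers did. With so few members these counts do not set the list apart. The counts stayed 11 and 15 with scaled groups.

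Among pluripotency genes, the lowest was an enhancer of Sall4, a zinc finger factor of ES cells, with 0.0902 in CAF-1 and 0.135 in Renilla (-0.58). Klf5, a Krüppel-like factor, had 3 members, of which 2 were lower (-0.29 and -0.19) and the farthest, at 9191 bp, was higher (0.146 and 0.0992, 0.55). Lin28a, an RNA-binding protein that blocks let-7 maturation, had 0.127 and 0.0871 (0.54). Tet2, a 5-methylcytosine oxidase, was higher at both members (0.40 and 0.18) beside a lower promoter (-0.23). At Klf5, Lin28a and Tet2 the promoter did not share the higher value.

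The reprogramming factors themselves were split. The enhancer 3726 bp upstream of Sox2 had 0.0850 and 0.104 (-0.29), and that of Pou5f1, which encodes Oct4, 0.103 and 0.101 (0.022). Klf4 had one lower (-0.25) and one higher (0.27). None of these 4 had a Sox2 position within 500 bp.

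The remaining members of this group were lower at Tcfcp2l1 (-0.056), Upp1 (-0.028 and -0.045), Mycn (-0.091), Jarid2 (-0.32), Trim28 (-0.26), Fgf4 (-0.017), Zfp42 (-0.28), Sall1 (-0.17) and Tet1. They were higher at Nodal (0.12), Tbx3 (0.26), Klf2 (0.19 and 0.099) and Tdgf1 (0.22). Zfp42, a classic ES cell marker also named Rex1, had low levels of 0.0623 and 0.0759.

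Epithelial genes had 14 nearest enhancers, with 9 higher (64.3%, beside 55.3% of all enhancers), 5 lower and a median of 0.094. Of the 14, 0 passed either limit, beside 10.3% and 6.58% of all enhancers. The farther 66 enhancers of the same list had a median of 0.033. The highest were those of Cldn4, a tight junction claudin, with 0.189 and 0.155 (0.28), and of Prss8, a serine protease, with 0.154 and 0.127 (0.28). Cdh3, the gene of P-cadherin, had 0.25 and -0.096, Elf3, an epithelial transcription factor, 0.095, -0.043 and 0.14, and Epcam 0.094 and -0.11. Cdh1, the gene of E-cadherin, had 0.152 and 0.143 (0.085) and held the single Sox2 position of the group. Among the others were Esrp1 (0.17), Ctnna1 (-0.084) and St14 (-0.12).

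Of 38 listed fibroblast genes, only 5 occur among the regions of the table. Their 5 members had 2 higher and 3 lower values. Fn1, the gene of fibronectin, had -0.024, Sparc, a matrix glycoprotein, 0.27 and -0.19, and Junb, an AP-1 subunit, -0.20 and 0.082.

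Signalling genes of early development had 34 members, 22 higher (64.7%, beside 55.3% of all enhancers) and 12 lower, or 20 and 14 with scaled groups, with a median of 0.053. The 129 farther enhancers of the list had 0.043. Past the limits, 1 was higher (2.94%, beside 10.3%) and 2 lower (5.88%, beside 6.58%). A Sox2 position lay at 1, where 4.78% of all enhancers had one. The highest in level were at Socs3, a feedback inhibitor of LIF signalling (0.217 and 0.198, 0.14), Smad3, a TGF-beta effector (0.215 and 0.177, 0.28), Fgfr1, an FGF receptor (0.181 and 0.176, 0.047), and Lif, the cytokine itself (0.182 and 0.174, 0.060). The highest ratio was at Nrarp, a Notch regulator (0.194 and 0.137, 0.50). Lifr, the LIF receptor, was higher at all 3 members (0.27, 0.11 and 0.14) and at its promoter (0.26). Spry2, a feedback inhibitor of receptor kinase signalling, was lower at both members (-0.24 and -0.45) and at its promoter (-0.36).

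Immediate early genes, which respond first to growth signals, had 20 members with 12 higher (60.0%, beside 55.3% of all enhancers) and a median of 0.080, against 0.016 for the 45 farther ones. At least 25% higher were 3 (15.0%, beside 10.3%), so both shares were near those of all enhancers. Btg2, an antiproliferative gene, had the highest level (0.198 and 0.208, -0.069). At Nr4a1, an orphan nuclear receptor gene, both members were higher, with 0.183 and 0.129 upstream (0.51) and 0.200 and 0.139 downstream (0.53), and the promoter had 0.18. Both members of Ier3 were higher too (0.26 and 0.26), as was its promoter (0.24).

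Cell cycle and replication genes had 17 members with 7 higher (41.2%, beside 55.3% of all enhancers) and a median of -0.020, against 0.051 for 55 farther enhancers of the same list. By level, Mcm2, a helicase subunit (0.193 and 0.195, -0.016), and Cdk1, the mitotic kinase (0.163 and 0.172, -0.071), were highest. At Ccnd3, which encodes cyclin D3, the enhancer had 0.165 and 0.122 (0.44) and the promoter -0.29. Rrm2, a subunit of ribonucleotide reductase, had 0.184 and 0.144 (0.36) beside a promoter at -0.36. In both genes enhancer and promoter went opposite ways.

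Ribosomal protein genes had 18 members, 10 higher (55.6%, beside 55.3% of all enhancers) and 8 lower, with a median of 0.045, against 0.067 for the 94 farther ones. Rpl11 had an enhancer of 0.185 and 0.154 (0.26). Rps15a was lower at all 3 members (-0.030, -0.53 and -0.41), and Rpl22 higher at both (0.13 and 0.10). Of the listed chromatin assembly genes only Chaf1b, which encodes the middle subunit of CAF-1, had a member. Its enhancer on chromosome 16 at 93890400, 6255 bp downstream of the start site, had 0.188 in CAF-1 and 0.134 in Renilla (0.48), and the promoter 0.146 and 0.134 (0.13).

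**Figure D5:**
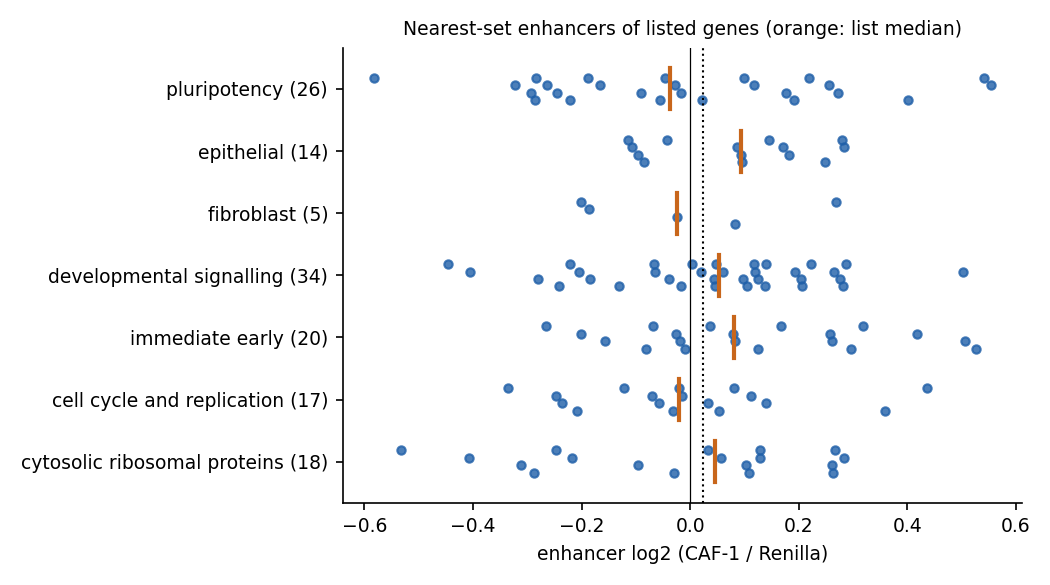
Log2 ratio of CAF-1 over Renilla at the nearest enhancers of 7 gene lists, 1 point per enhancer, with list medians as orange bars, 0 as a solid line and the median of all 2854 nearest enhancers (0.024) as a dotted line. Points of each list fall on both sides of 0. The pluripotency median is -0.037 and the epithelial one 0.094.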

How the data were processed

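The authors deposited Sono-seq as 1 score per region and group, for 22594 pairs of enhancer and promoter. The unit, the scaling and how 3 libraries became 1 value were not stated in the labels or headers. For Sox2, columns per the file headers are the score, a q-value (false discovery rate; 0 positions exceeded 0.01) and the enrichment, a ratio over input that the authors computed. The submitters' processing notes name the build mm9 and the aligners BWA 0.7.8 and Bowtie. For the position caller, the name was not given in the sources used here. Read depth is unknown, so a missing position is no evidence of absence.

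Log2 ratios were computed per region without a pseudocount (Python 3.11.15, pandas 2.3.3, SciPy 1.17.1), and distances and overlaps were tested on simulated data. Symbols altered to dates in 136 pairs were restored through RefSeq transcripts. Gene strand came from the RefSeq promoter table (GRCm38.p6), known for 2225 of 2854 members. Intervals are 95%, exact binomial for shares and from order statistics for medians, and cover counting error only.

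Members and gene lists were chosen with earlier results of these data known. Named are the members with the 5 shortest distances, the 5 highest and 5 lowest ratios and the 5 highest levels, the 5 best per Sox2 class, the 5 genes with most members, the 5 widest gaps between enhancer and promoter, all members of pluripotency, epithelial and fibroblast genes, and up to 4 of the highest level in other lists. Some members that this rule names are not reported here, though the counts and medians include them. Ratio extremes and gaps were limited to levels above the median. Singled out after their values were seen were Ppfibp2, the middle member of Ankrd10, the members under 3 kb, the 4 genes with Sox2 at both ends, Nrarp, Lifr, Spry2, Nr4a1, Ier3, Ccnd3, Rps15a and Chaf1b.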

Additional observations from a re-analysis of the deposited data

How the results depend on the processing

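No paired analysis was possible because Sono-seq has 1 deposited value per group and Sox2 has 1 immunoprecipitate per hairpin, and for this reason no single library could be left out. Of 81 recomputed values, 66 stayed within the interval of the reported value, or within 1.5 times a count, and 15 did not. Among those 66 are the correlation of enhancer and promoter ratios, the share of pairs in the same direction, and the difference between nearest and other enhancers, although this changed sign to 0.0046 for enhancers above the median level. That filter raised the median log2 ratio to 0.054 and left 148 members at least 25% higher and 59 at least 20% lower, of 1417. Scaling to equal medians lowered the median to 0.0047. A pseudocount of 0.05 left 101 higher and 51 lower. The Sox2 shares in Renilla, Chaf1a.166 and Chaf1a.2122 were 1.05%, 1.30% and 1.26% with a window of 200 bp, and 4.48%, 4.38% and 4.77% with 1000 bp. Asking for a lower bound of enrichment of 2 or more gave 1.93%, 2.07% and 1.75%. These steps change the shares by construction. A pseudocount cannot change the direction of a ratio, and equal list length leaves the Chaf1a.166 share as it was. Those values among the 66 were therefore fixed in advance. Other settings kept nearly all of the 2854 members, so their values could move little and add little to the 66. Leaving out enhancers within 1 kb of a listed start site kept 2848, leaving out members under 3 kb kept 2831, and autosomes alone held 2823. Leaving out members under 3 kb, the comparison by gene side and levels on autosomes were added after seeing the data.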
